A study of Homo sapiens with 8 samples.

Results

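The genes described here are 60 that carry a cell from mitotic entry to anaphase, chosen by name from the entry kinases and cyclins, the spindle assembly checkpoint, the kinetochore and the anaphase-promoting complex (APC). All 60 were rows of the deposited table of 18955 genes, and they fall into 10 role groups, of which the APC core, with 14 subunits, is the largest. Levels are given as CPM, counts per 1000000 UMIs (unique molecules counted by sequencing) of a library. Before testing, genes had to reach at least 5 CPM in at least 2 libraries, which 57 members passed. The other 3 were KNTC1, a subunit of the RZZ complex (2.41 to 4.43 CPM), ANAPC2, the cullin of the APC (3.21 to 5.32 CPM), and ESPL1, the protease separase (2.51 to 4.79 CPM).

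SUM159, the cell line used throughout, was derived from a human triple-negative breast cancer, and all cells carried a lentiviral library of DNA barcodes. The 8 single-cell RNA libraries were cells taken before treatment and cells grown for up to 18 passages in DMSO vehicle, in 0.6 nM paclitaxel, in 160 nM palbociclib, in 100 nM JQ1 (libraries JQ1-A and JQ1-B), in JQ1+paclitaxel or in JQ1+palbociclib at those doses. JQ1 inhibits BET bromodomain proteins, paclitaxel binds and stabilises microtubules, and palbociclib blocks CDK4 and CDK6 of the G1 phase. DMSO, paclitaxel, JQ1-A and JQ1+paclitaxel formed 1 experiment; palbociclib, JQ1-B and JQ1+palbociclib formed another, without a vehicle library. Cultures of a treatment were combined before capture, so each drug regimen had a single library within an experiment, and 1 of the JQ1+palbociclib cultures was lost during the passages. The p-values below therefore measure the spread between libraries and not between cultures.

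Cyclin B and CDK1 drive entry into mitosis, with PLK1 and the Aurora kinases acting on centrosomes, spindle and chromosomes. Kinetochores are built on centromeric chromatin and hold microtubules through the NDC80 and SKA complexes. While any kinetochore is unattached, MAD2 and BUB proteins hold back CDC20, the mitotic activator of the APC; once they release it, the APC marks cyclin B and securin for destruction and sister chromatids part. Transcripts of many of these genes are low in G1 and high in G2 and M.

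The libraries held 459 to 1024 cells and 10621159 to 24240835 UMIs, DMSO being the shallowest and JQ1+palbociclib the deepest. VIM, a mesenchymal gene that SUM159 expresses, ranged from 3279 to 4502 CPM, while the receptor genes ESR1 and PGR and the leukocyte gene PTPRC had at most 0.124, 0.139 and 0.471 CPM. The median mitochondrial share of UMIs per cell was 3.72% to 3.96% in pre-treatment, DMSO and paclitaxel and 4.69% to 7.18% in the 5 libraries with JQ1 or palbociclib. That is the same division of libraries as for most members below, and the part of mitochondrial content in it was not tested. Of 5725 distinct cell barcode sequences, 13 occurred in more than 1 library.

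Summed over all 60 members, the level was 5313 CPM in pre-treatment, 5500.2 in DMSO and 6741 in paclitaxel. It was 3639 CPM in palbociclib, 3856 in JQ1-A, 3869 in JQ1-B, 3787 in JQ1+paclitaxel and 3454 in JQ1+palbociclib. The 3 libraries with neither JQ1 nor palbociclib were thus above the other 5. Of the 57 members tested, 45 were lower in each of those 5 libraries than in any of the other 3, where 33.3% of all 9288 genes tested were. ANAPC16 alone was higher in each of the 5 (11.5% of all genes), and 11 members overlapped. This division by exposure was chosen after the values had been seen and was not tested as such. The 14 APC core subunits summed to 1161 CPM in DMSO and to between 1038 (palbociclib) and 1204 (paclitaxel) in all libraries, whereas the other 46 members went from 2391 CPM in JQ1+palbociclib to 5537 in paclitaxel. ANAPC11 alone held 447 of the 1161 CPM in DMSO. By gene, the median log2 ratio of CPM + 1 to DMSO of the 13 tested core subunits was -0.40 to -0.22 in the 5 libraries. Over all genes tested it was -0.28 to -0.12. Of those 13 subunits, 7 were lower in each of the 5 libraries than in any of the other 3. In summed libraries, fewer cells near division and less RNA of these genes per cell cannot be told apart, which is why single cells are described further on.

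**Figure D1:**
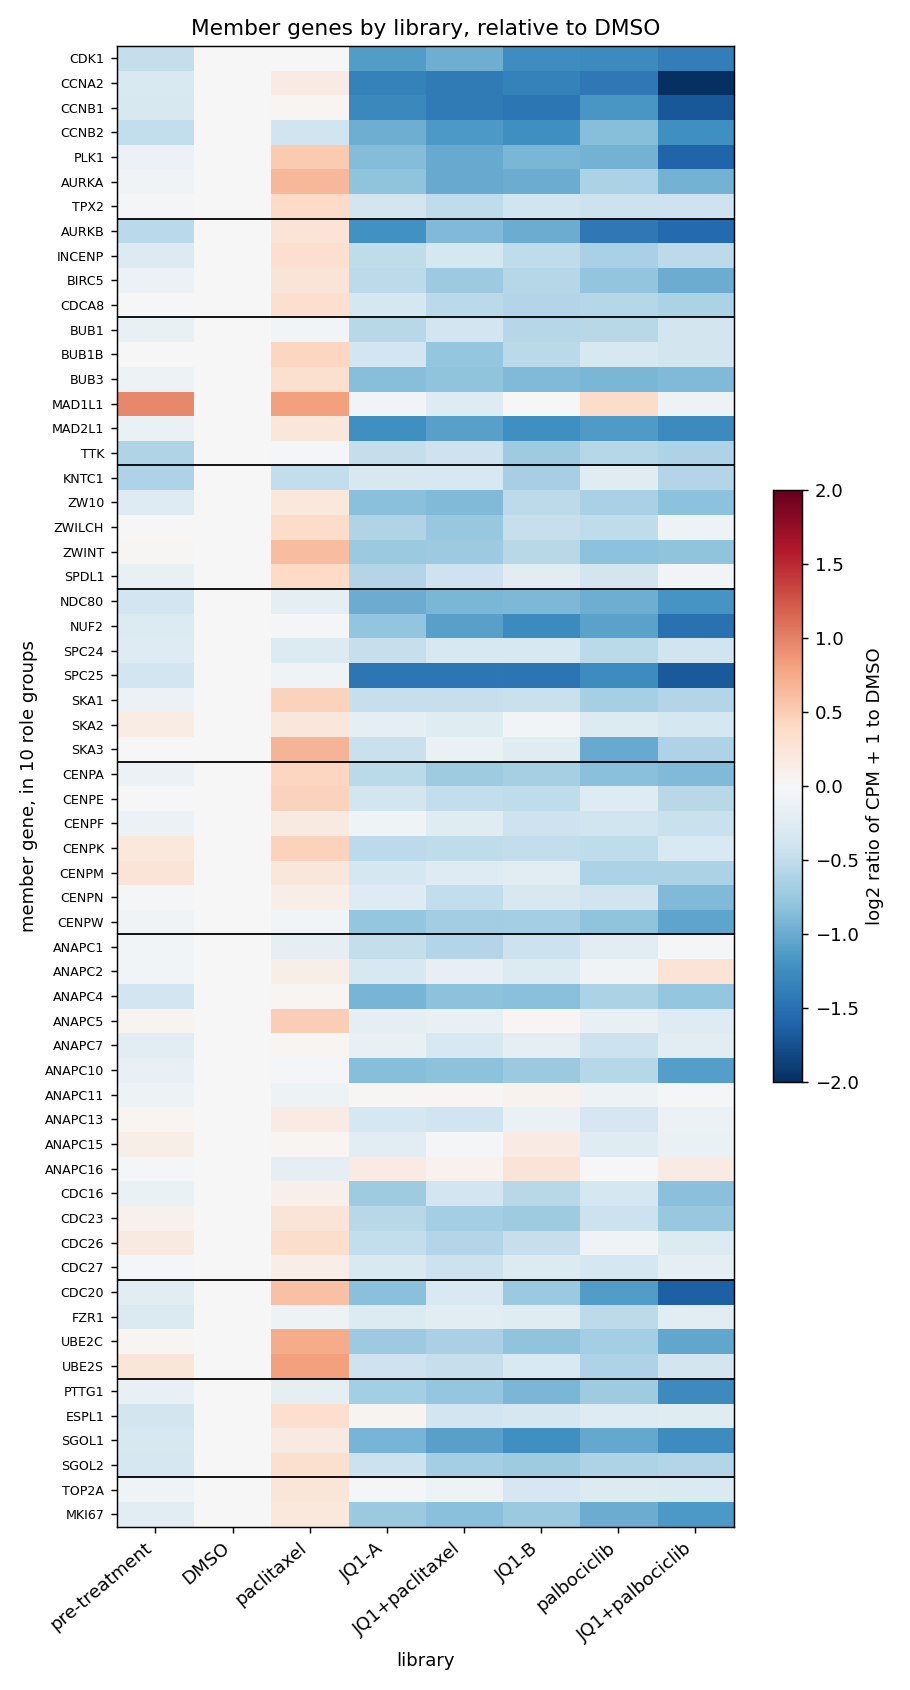
Heat map of the 60 members (rows, in 10 role groups parted by lines) in the 8 libraries (columns), as the log2 ratio of CPM + 1 to DMSO (blue lower, red higher). The 5 libraries with JQ1 or palbociclib are blue for most members, except rows such as ANAPC11, ANAPC16 and ANAPC15 in the APC core.

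Exposure to JQ1 was compared between the 4 libraries with it and the 4 without, in a fit with terms for all 3 drugs (edgeR's quasi-likelihood test, Benjamini-Hochberg adjusted over 9288 genes, called under 0.05). Of 57 members, 25 were called lower, where 19.7% of all genes were, and 2 higher, where 17.8% were. The median log2 fold change of the members was -0.34, against -0.003 over all genes tested; it was -0.22 without the paclitaxel library and also without JQ1+paclitaxel. In 12 members the 4 exposed libraries lay wholly below the 4 unexposed ones (22.7% of all genes), and in ANAPC16 wholly above (5.45%). Scaling by library totals alone, in place of TMM, shifted all genes by -0.20 on the log2 scale and the members with them, and gave 33 calls lower (31.5% of all genes) and 0 higher (9.28%). Over all genes, the share of calls that were higher went from 47.4% to 22.8% with that scaling. Relative to all genes the members' median was -0.34 either way, which a shift of all genes alike cannot change.

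**Figure D2:**
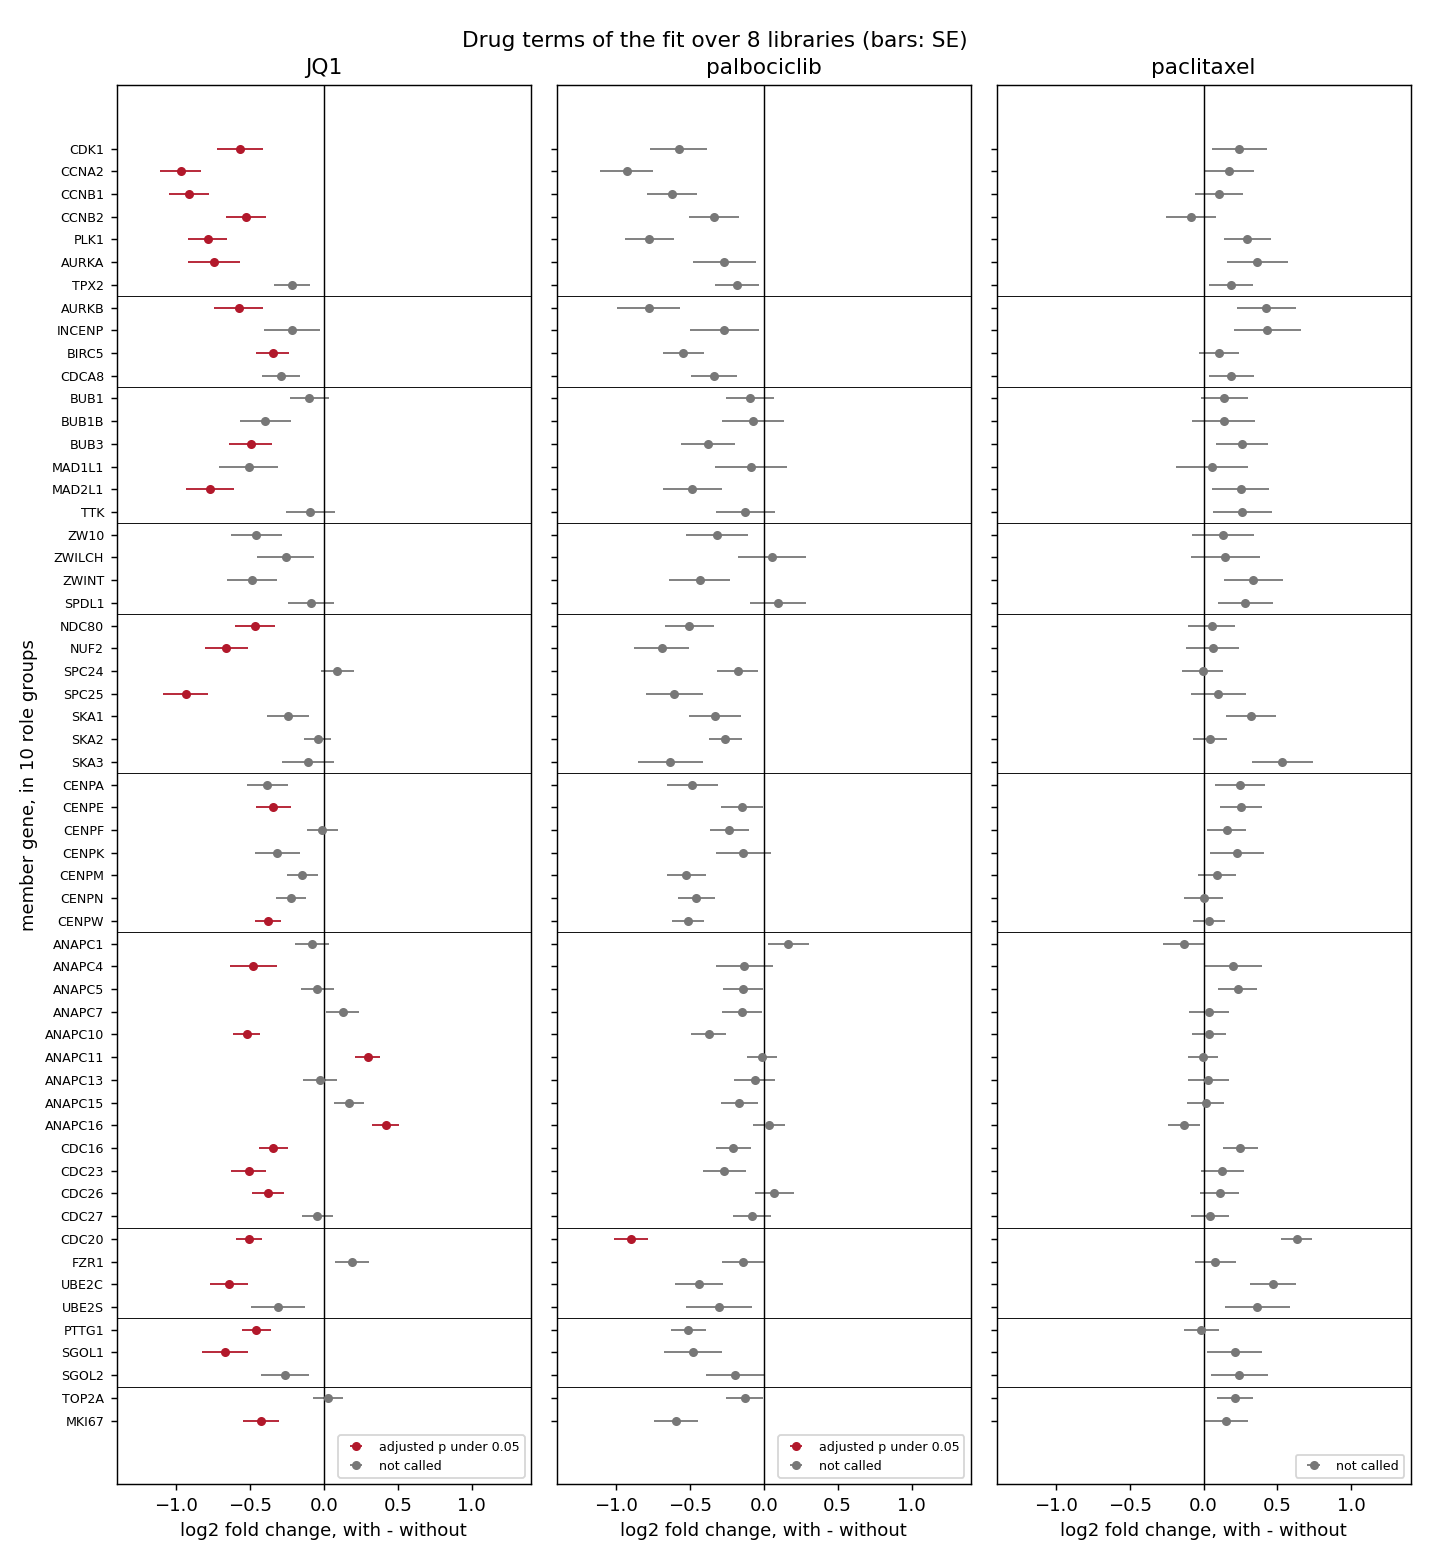
Log2 fold change (with minus without the drug, bars are SE) of each of the 57 members tested, for JQ1, palbociclib and paclitaxel, in rows by role group. Filled red points were called: 27 for JQ1, CDC20 alone for palbociclib and 0 for paclitaxel.

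Of the role groups, mitotic entry had the highest share of calls. Of its 7 members, 6 were called lower (CDK1, CCNA2, CCNB1, CCNB2, PLK1 and AURKA), with log2 fold changes of -0.97 to -0.53. CCNB1, the main mitotic cyclin (chromosome 5, 68462962 to 68474072, GRCh37, as are the gene positions below), stood at 191 CPM in pre-treatment, 239.7 in DMSO, 246 in paclitaxel, 106 in palbociclib, 97.3 in JQ1-A, 87.8 in JQ1-B, 89.2 in JQ1+paclitaxel and 73.1 in JQ1+palbociclib. Its 4 JQ1 libraries did not overlap with the others, with means of 86.8 ± 10.0 CPM (SD, n = 4) with JQ1 and 196 ± 64.6 CPM (SD, n = 4) without. The log2 fold change was -0.91 ± 0.13 (SE, adjusted p = 0.00245). CCNA2, cyclin A of S phase and G2 (chromosome 4, 122737599 to 122745038), had the largest fall of any member, -0.97 ± 0.14 (SE, adjusted p = 0.00231). It was at 81.7 CPM in DMSO and 91.4 in paclitaxel, but at 29.8 in palbociclib, and between 19.8 and 31.5 in the JQ1 libraries. CCNB2, the second B-type cyclin, fell by 0.53 ± 0.14 (SE, adjusted p = 0.018) on the log2 scale, and PLK1, a kinase needed for spindle assembly, by 0.79 ± 0.13 (SE, adjusted p = 0.00398). TPX2, which activates Aurora A on the spindle, was not called at -0.21 ± 0.12 (SE, adjusted p = 0.189); its levels were 55.3 to 61.2 CPM with JQ1, 58.4 in palbociclib and 77.6 to 104 in the other 3.

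In the chromosomal passenger complex, which corrects faulty attachments, AURKB (its kinase, -0.58 ± 0.17 SE, adjusted p = 0.028) and BIRC5 (survivin, -0.35 ± 0.11 SE, adjusted p = 0.0389) were called lower. INCENP and CDCA8 (borealin) were not, with log2 fold changes of -0.21 and -0.29. Among the 6 checkpoint proteins, MAD2L1, which blocks CDC20, fell by 0.77 ± 0.16 (SE, adjusted p = 0.00822), from 83.6 ± 29.0 to 40.5 ± 2.26 CPM (SD, n = 4 each). The large SD without JQ1 came from palbociclib, at 42.8 CPM beside 86.5 to 110.5 in the other 3. BUB3, an adaptor of the BUB kinases, was called lower as well (-0.49 ± 0.15 SE, adjusted p = 0.0293). The kinases BUB1, BUB1B and TTK and the MAD2L1 partner MAD1L1 were not called by edgeR, at -0.10, -0.40, -0.09 and -0.51. DESeq2 called MAD1L1 lower. MAD1L1 stood at 56.2 CPM in pre-treatment and 28.4 in DMSO, a larger gap between these 2 untreated libraries than for any other member. None of the 4 tested members of the RZZ group, which brings MAD1 and dynein to kinetochores, was called by edgeR. Of the 4, 2 had an unadjusted p under 0.05, as did 4485 of all 9288 genes tested. DESeq2 called ZWINT lower. ZWINT, the kinetochore anchor of RZZ, came nearest in edgeR at -0.48 ± 0.17 (SE, adjusted p = 0.0516), while ZW10 (-0.46), SPDL1 (-0.09) and ZWILCH (-0.26) were not called either.

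At the outer kinetochore, the NDC80 complex was divided. Its subunits SPC25 (-0.93 ± 0.15 SE, adjusted p = 0.00367), NUF2 (-0.66 ± 0.15 SE, adjusted p = 0.0109) and NDC80 (-0.47 ± 0.13 SE, adjusted p = 0.0265) were called lower, whereas SPC24, the partner of SPC25, was not (0.09 ± 0.11 SE, adjusted p = 0.548). SPC25 stood at 16.8 to 19.9 CPM in the 4 JQ1 libraries and 23.0 to 56.0 in the others, without overlap. SPC24 stood at 18.7 to 20.7 CPM and 17.5 to 26.0, which overlap. The 3 SKA genes, which help NDC80 track microtubule ends, were not called: SKA2 gave -0.04 ± 0.09 (SE, adjusted p = 0.733), SKA1 -0.24 and SKA3 -0.11. Of the 7 centromere proteins, CENPW, part of the inner kinetochore (-0.38 ± 0.09 SE, adjusted p = 0.0126), and CENPE, a kinesin (-0.34 ± 0.12 SE, adjusted p = 0.0498), were called lower. CENPF, a large protein of the corona, was at 88.7 to 115 CPM with JQ1 and 91.7 to 138 without, and its log2 fold change was -0.01 ± 0.11 (SE, adjusted p = 0.942). CENPN, which reads CENPA nucleosomes, gave -0.22 and was not called, and neither were CENPA (-0.38), CENPK (-0.31) or CENPM (-0.15). DESeq2 called CENPA lower.

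Among the factors that switch the APC on, CDC20 was called lower (-0.50 ± 0.09 SE, adjusted p = 0.00472) and so was the conjugating enzyme UBE2C (-0.64 ± 0.13 SE, adjusted p = 0.00748). UBE2S, which extends ubiquitin chains, was not: it gave -0.31 ± 0.18 (SE, adjusted p = 0.211), with 566 to 634 CPM in the JQ1 libraries, 512 in palbociclib, and 781, 927 and 1375 in DMSO, pre-treatment and paclitaxel. FZR1, the activator used in late mitosis and G1, gave 0.19 ± 0.11 (SE, adjusted p = 0.215). The securin PTTG1 (-0.46 ± 0.10 SE, adjusted p = 0.0088) and the cohesin protector SGOL1 (-0.67 ± 0.16 SE, adjusted p = 0.013) were called lower, while SGOL2 was not (-0.26). Of the proliferation markers, MKI67 (Ki-67) was called lower at -0.42 ± 0.12 (SE, adjusted p = 0.0247), and TOP2A, the topoisomerase that untangles chromatids, was not at 0.03 ± 0.10 (SE, adjusted p = 0.832). PTTG1, CDC27 and ANAPC1 have near-identical copies elsewhere in the genome, and reads may have been shared out or lost between them.

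The APC core held both of the calls in the upward direction. Of 13 subunits tested, 5 were called lower (ANAPC4, ANAPC10, CDC16, CDC23 and CDC26, -0.52 to -0.34), 2 higher and 6 not at all, and the median was -0.04 against -0.38 for the other 44 members. ANAPC16, a small subunit (chromosome 10, 73975758 to 73995618), stood at 145 CPM in pre-treatment, 148 in DMSO, 129 in paclitaxel, 149 in palbociclib, 166 in JQ1-A, 177 in JQ1-B, 155 in JQ1+paclitaxel and 166 in JQ1+palbociclib. Each JQ1 library was above each library without it, and the log2 fold change was 0.42 ± 0.09 (SE, adjusted p = 0.00909). ANAPC11, the RING subunit that recruits the conjugating enzyme (chromosome 17, 79848666 to 79858867), gave 0.30 ± 0.08 (SE, adjusted p = 0.0264), with 441 to 469 CPM with JQ1 and 417 to 447 without. DMSO lay within the JQ1 range. With library totals alone the log2 fold changes of ANAPC16 and ANAPC11 were 0.22 and 0.10, in the same direction, and neither was called. ANAPC11 also lost its call when pre-treatment, DMSO, paclitaxel, JQ1-A, JQ1-B or JQ1+paclitaxel was left out, and ANAPC16 kept its call whichever single library was left out. The subunits not called were ANAPC7 (0.13), CDC27 (-0.04), ANAPC5 (-0.04), ANAPC13 (-0.03), ANAPC15 (0.17) and ANAPC1 (-0.08). ANAPC2, below the filter, had 3.90 ± 0.972 CPM with JQ1 and 4.24 ± 0.313 without (SD, n = 4 each).

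The number of JQ1 calls depended on the libraries and the terms of the fit. Within the JQ1+paclitaxel experiment alone, 23 members were called lower (14.7% of all genes) and 1 higher (15.7%). When each of 3 JQ1 libraries was paired with its counterpart of the same experiment, and likewise with experiment as a term, CCNA2 and CCNB1 were the only members called lower, where 2.34% of all genes were in the pairs and 2.99% with the term. The log2 fold change was negative in 49 of 57 members in either fit. Its median was -0.36 in each, beside -0.34 in the fit with drug terms alone. Both fits left fewer residual degrees of freedom than that one. JQ1+palbociclib stood to palbociclib at 0.949 times its summed member CPM, whereas JQ1-A stood to DMSO at 0.701 and JQ1+paclitaxel to paclitaxel at 0.562. Leaving out JQ1-A gave 13 members lower (9.93% of all genes) and leaving out JQ1-B gave 12 (11.5%), so that fewer calls were made over all genes as well.

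Palbociclib was tested over 2 libraries against 6, in the same fit and so partly on the same libraries as JQ1. CDC20 was the only member called lower, where 0.0754% of all genes were, and no member was called higher (0.205% of all genes). CDC20 (chromosome 1, 43824652 to 43828874) stood at 149 CPM in pre-treatment, 174 in DMSO, 262 in paclitaxel, 79.3 in palbociclib, 96.7 in JQ1-A, 103 in JQ1-B, 141 in JQ1+paclitaxel and 55.1 in JQ1+palbociclib. Both palbociclib libraries were the lowest, with means of 67.2 ± 17.1 CPM (SD, n = 2) with palbociclib and 154 ± 60.1 CPM (SD, n = 6) without, and the log2 fold change was -0.90 ± 0.11 (SE, adjusted p = 0.0371). In 15 members both palbociclib libraries lay below the other 6, where 5.1% of all genes did, and 52 of 57 log2 fold changes were negative, with a median of -0.27 against 0.01 over all genes. CCNA2 (-0.93 ± 0.18 SE, adjusted p = 0.0716), AURKB (-0.78 ± 0.21 SE, adjusted p = 0.101) and PLK1 (-0.77 ± 0.17 SE, adjusted p = 0.0761) had sizes near that of CDC20 and missed the threshold. DESeq2 called 12 members lower, where it called 2.68% of all genes. The number called lower by edgeR was 0 (0% of all genes) when DMSO, pre-treatment or either library with JQ1 alone was left out. The members' medians then were -0.30 to -0.27. Without paclitaxel 9 members were called lower (2.26% of all genes), and likewise 9 without JQ1+paclitaxel (2.3%). Leaving out 1 of the 2 palbociclib libraries left a lone library that was assumed to vary like the other groups. It gave 0 members without palbociclib (0.0546% of all genes) and 14 without JQ1+palbociclib (4.46%), with medians of -0.13 and -0.47. Against DMSO, which is of another experiment, 55 of 57 members were lower in palbociclib. The median log2 ratio was -0.61, beside -0.12 over all genes tested.

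Paclitaxel, tested over 2 libraries against 6, gave 0 members called by edgeR in either direction, as it gave 0% of all genes lower and 0% higher. An unadjusted p under 0.05 was found for 3 of 57 members and for 395 of all 9288 genes tested. DESeq2 called 1 member higher (0.0108% of all genes). Of 57 log2 fold changes 51 were positive, with a median of 0.15, and the largest was that of CDC20, 0.63 ± 0.11 (SE, adjusted p = 0.632). The direction rested on 1 library: without the paclitaxel library the median was -0.05, with 33 of 56 members negative, and without JQ1+paclitaxel it was 0.32, each time with a lone paclitaxel-exposed library left. The library with paclitaxel alone nevertheless had the highest summed level: UBE2S was at 1375 CPM against 781 in DMSO, and UBE2C at 293 against 175. In all, 42 of 57 members were above DMSO there, with a median log2 ratio of 0.22, where the median absolute log2 ratio between pre-treatment and DMSO was 0.15. JQ1+paclitaxel resembled JQ1-A instead, with 0.982 times its summed level. CDC20 was an exception, at 141 CPM in JQ1+paclitaxel and 96.7 in JQ1-A.

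Interaction terms tested whether palbociclib or paclitaxel acted differently on a member when JQ1 was present, and left 2 residual degrees of freedom. No member was called by edgeR's quasi-likelihood test for JQ1 with palbociclib (0.0108% of all genes) or for JQ1 with paclitaxel (0.388%). At an unadjusted p under 0.05 there were 9 and 12 of 57 members, beside 1580 and 1577 of all 9288 genes tested. The medians were 0.26 and -0.26 on the log2 scale, positive in 44 of 57 members for the former and negative in 44 of 57 for the latter. With library totals alone the former was 0.44, the median of all genes then being 0.17. The gap between palbociclib and DMSO in the members' summed level, a ratio of 0.662, stood beside one of 0.893 between JQ1+palbociclib and JQ1-B.

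Members were also ranked by how closely they followed the rest, as Pearson's r over the 8 libraries of log2(CPM + 1) with the median of the other tested members. Because the libraries form 2 levels, r mostly says whether a member shared that step, and it was not tested. It was at least 0.8 for 46 of 57 members. The lowest 5 were ANAPC16 (-0.79), ANAPC11 (-0.54), ANAPC1 (0.53), ANAPC15 (0.53) and FZR1 (0.55), which are 4 core subunits and an activator of the APC. ANAPC15, needed to turn the checkpoint complex off, stood at 76.7 to 102 CPM over all libraries, and FZR1 at 11.8 to 17.4. Relative to DMSO, ANAPC16 was 0.25 on the log2 scale in JQ1-B, where the median member was -0.55 and the median of all genes tested -0.20.

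Other genes of the same processes, counted in the same fit, were read against the background of 19.7% lower and 17.8% higher for JQ1. Of 27 further centromere and kinetochore genes 10 were lower and 1 higher, and of 16 spindle and cytokinesis genes 5 were lower and 0 higher. Of 16 tested mitotic entry switches 3 were lower and 3 higher, the latter being CDC25B, WEE1 and ENSA. Of 21 cohesin and condensin genes 5 were lower and 1 higher, and of 32 replication genes 14 were lower and 0 higher. The median log2 fold changes of these lists were -0.31, -0.21, -0.09, -0.14 and -0.36. For palbociclib, CDKN3 of the spindle list was the only one of these genes called, and was lower, and for paclitaxel none was.

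The stretches of promoter below show which members carry the letters of the CHR, a short element of G2/M genes bound by the DREAM and MuvB complexes, and of the CCAAT box bound by NF-Y. They are from RefSeq (GRCh38.p14, not the build of the counts), 120 bases ending just before the annotated start, written 5′ to 3′ in the direction of the gene. Capitals mark TTTGAA or TTCGAA (CHR) and CCAAT, each also searched in reverse complement; in CDCA8 the CHR letters overlap a reversed CCAAT. The first 4 have both elements, BUB1B has a CHR alone, CCNB1 has CCAAT boxes alone, and 2 APC core subunits have neither.
CCNB2, chr15:59105026-59105145, + strand: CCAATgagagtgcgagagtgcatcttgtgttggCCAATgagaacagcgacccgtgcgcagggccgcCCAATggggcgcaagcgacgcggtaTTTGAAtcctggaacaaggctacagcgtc
PLK1, chr16:23678769-23678888, + strand: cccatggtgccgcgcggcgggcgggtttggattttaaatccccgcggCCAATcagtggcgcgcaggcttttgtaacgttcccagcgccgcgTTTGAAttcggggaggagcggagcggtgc
CDC20, chr1:43358861-43358980, + strand: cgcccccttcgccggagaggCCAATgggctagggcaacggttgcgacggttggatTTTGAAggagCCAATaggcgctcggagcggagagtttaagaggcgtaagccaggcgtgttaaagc
CDCA8, chr1:37692396-37692515, + strand: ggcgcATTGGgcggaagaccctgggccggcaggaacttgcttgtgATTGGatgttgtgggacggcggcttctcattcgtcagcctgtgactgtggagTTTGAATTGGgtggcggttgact
BUB1B, chr15:40160949-40161068, + strand: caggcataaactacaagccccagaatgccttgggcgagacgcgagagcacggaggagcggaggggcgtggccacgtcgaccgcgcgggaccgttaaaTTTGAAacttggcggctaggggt
CCNB1, chr5:69167030-69167149, + strand: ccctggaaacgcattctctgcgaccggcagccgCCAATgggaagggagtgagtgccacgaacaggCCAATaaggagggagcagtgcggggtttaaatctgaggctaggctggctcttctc
ANAPC16, chr10:72215892-72216011, + strand: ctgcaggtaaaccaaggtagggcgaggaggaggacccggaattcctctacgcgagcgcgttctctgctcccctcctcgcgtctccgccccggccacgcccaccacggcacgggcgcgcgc
CDC26, chr9:113275573-113275692, - strand: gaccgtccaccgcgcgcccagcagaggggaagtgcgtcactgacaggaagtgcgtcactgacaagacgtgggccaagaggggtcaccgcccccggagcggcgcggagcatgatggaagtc

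Counting from -1 at the base before the start, the CHR letters began at -29 in CCNB2 and PLK1, at -23 in CDCA8 and BUB1B and at -65 in CDC20. Over the 250 bases before each start, 52 members had a promoter in the table. The CHR letters were found in 16 of 38 members other than the APC core (42.1%) and in 2 of 14 core subunits (14.3%), and in 17.2% of all 27305 genes of the table. CCAAT was found in 29 of 38 (76.3%), 6 of 14 (42.9%) and 37% of all genes. Within 100 bases of the start the CHR letters were in 12 of 38 members, 1 of 14 core subunits and 6.14% of all genes. The CHR letters were in 7 of 21 members called lower for JQ1 and in 9 of 21 uncalled ones outside the core. The former include 5 core subunits, a group in which the letters were rarer, so these sets are not alike. A match is a run of letters and not a measured site.

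Single cells were compared after thinning each to 10000 UMIs, keeping those that had 2000 or more genes and between 1 and 15% of their UMIs from mitochondrial genes (445 to 972 cells per library). The median cell had 47 UMIs of the 60 members in pre-treatment, 48 in DMSO, 61 in paclitaxel, 28 in palbociclib, 31 in JQ1-A, 33 in JQ1-B, 27 in JQ1+paclitaxel and 28 in JQ1+palbociclib. For the 46 members outside the core, the lower quartile went from 25 UMIs in DMSO to between 7 and 10 in the libraries with JQ1 or palbociclib, and the 95th percentile from 79.8 to between 59 and 71.8. The low end of the distribution thus moved by more, in proportion, than the high end. The sum of the 14 core subunits, in which ANAPC11 weighed most, had a median of 10 to 12 UMIs in all 8 libraries. The 32 replication genes, shown for comparison, had a median of 14 UMIs in DMSO, 15 in pre-treatment and 17 in paclitaxel, and 9 or 10 in the other 5.

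**Figure D3:**
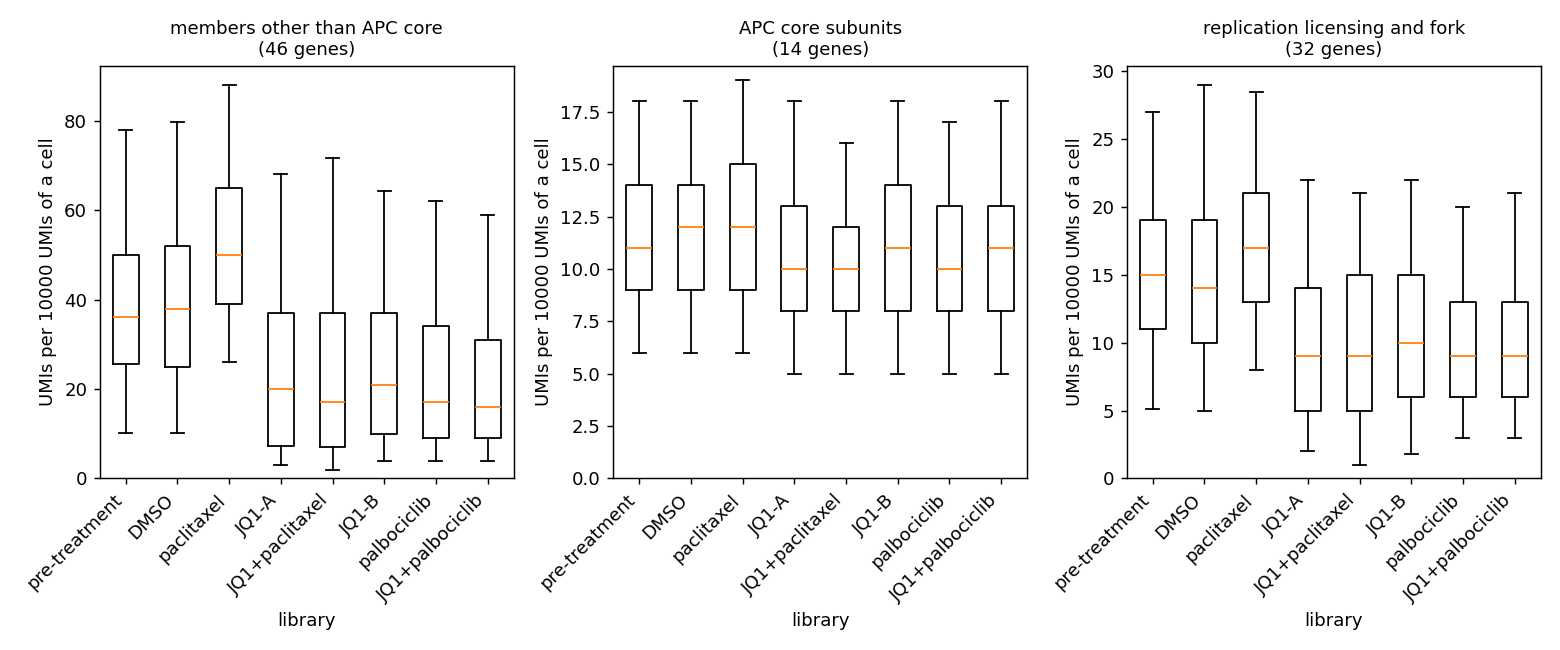
UMIs per 10000 UMIs of a cell, by library, for the 46 members outside the APC core, the 14 APC core subunits and 32 replication genes; lines are medians, boxes quartiles, whiskers the 5th and 95th percentiles. The 5 libraries with JQ1 or palbociclib have lower boxes for the first and last list. The summed APC core, in which ANAPC11 weighs most, has medians of 10 to 12 everywhere.

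Cells with fewer than 10 UMIs of the 46 members made up 4.46% in pre-treatment (26 of 583 cells, 95% interval 2.93 to 6.47%), 4.49% in DMSO (20 of 445 cells, 95% interval 2.77 to 6.86%) and 0.410% in paclitaxel (3 of 732 cells, 95% interval 0.0846 to 1.19%). They made up 26.7% in palbociclib (177 of 662 cells, 95% interval 23.4 to 30.3%), 24.1% in JQ1-B (202 of 837 cells, 95% interval 21.3 to 27.2%), 27.8% in JQ1+palbociclib (270 of 972 cells, 95% interval 25 to 30.7%), 30.5% in JQ1-A (198 of 650 cells, 95% interval 26.9 to 34.2%) and 33.8% in JQ1+paclitaxel (205 of 606 cells, 95% interval 30.1 to 37.7%). Cells with at least 50 such UMIs were 25.4% of pre-treatment, 29.9% of DMSO and 51.1% of paclitaxel cells, and between 8.85% (JQ1+palbociclib) and 13.9% (JQ1+paclitaxel) in the other 5. The intervals are exact binomial ones and cover counting error within a library only.

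To set cells near division apart without using the members, cells were placed in 4 classes by the summed UMIs of 16 other spindle and cytokinesis genes: 0 to 2, 3 to 9, 10 to 19 and 20 or more of 10000. These are ranges and not cell types, and 199 of 5487 cells lay exactly at the limit of 10 and 255 just below it. The lowest class held 13.4% of cells in pre-treatment, 14.4% in DMSO and 3.96% in paclitaxel, and 36.6% to 43.1% in the other 5. Its cells had a mean of 19.2, 17.4 and 31.2 UMIs of the 46 members in those 3 libraries, and 7.44 to 10.8 in the others. In the highest class the means came together: 75.7 in pre-treatment, 73.5 in DMSO, 75.1 in paclitaxel, 74.7 in JQ1-A, 77.9 in JQ1-B, 77.9 in JQ1+paclitaxel, 80.8 in palbociclib and 65.8 in JQ1+palbociclib. That class was small, with 11 to 27 cells per library, and the SD over its cells was 17.2 to 23.3 UMIs. The highest library exceeded the lowest 4.19 times in the lowest class and 1.23 times in the highest. The 4.19 rests on paclitaxel, which had only 29 cells in the lowest class. The next highest mean there was 19.2, in pre-treatment.

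**Figure D4:**
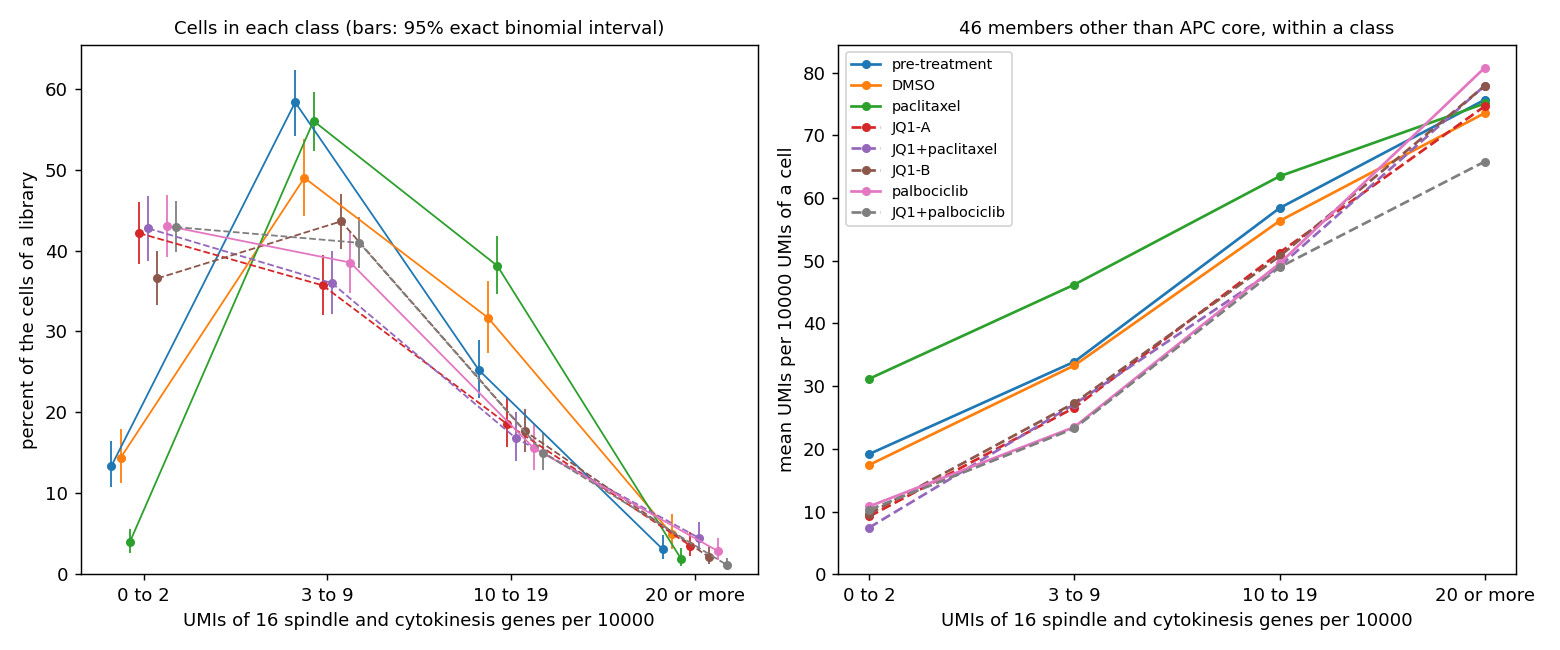
Left, percent of a library's cells in each of 4 classes by UMIs of 16 spindle and cytokinesis genes; right, mean UMIs of the 46 members outside the APC core in those cells, per 10000. Solid lines are libraries without JQ1 and dashed ones with it; the lines are far apart at 0 to 2 UMIs and near each other at 20 or more.

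Within libraries, 23 members were over 2-fold higher in cells with 10 or more of these UMIs than in cells with 0 to 2 in each of the 8 libraries, and all 23 lay outside the core. NUF2 had the largest median log2 ratio over libraries, 4.40, and CENPA, AURKA, PLK1 and CCNA2 had 3.81 to 3.97. A pseudocount of 0.5 UMIs was added to each sum. In the cells with 0 to 2, NUF2 had only 2 to 7 UMIs per library after thinning. ESPL1, also among the 23, had 0 to 3, so such ratios and their ranks rest on few counts. The core subunits ranged from 0.12 (ANAPC16) to 0.92 (CDC27). MAD1L1 was the only member with a negative median, -0.33 (range -1.16 to 0.19). Both sets of cells come from the same libraries, and the 16 genes were themselves chosen as mitotic, so these ratios are a description.

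The JQ1 term was then fitted on the cells with 10 or more UMIs of the 16 genes alone, summed per library, a comparison added after the values above had been seen. Of 58 members tested, 6 were called lower (13.9% of all genes) and 5 higher (11.1% of all genes). In neither direction were members called more often than all genes, so the genes named next are a description. The median was -0.02 in place of -0.34 over all cells. The genes still lower were CCNA2 at -0.51 ± 0.11 (SE, adjusted p = 0.00714), SPC25 at -0.47 ± 0.11 (SE, adjusted p = 0.0113), CCNB1 at -0.41 ± 0.10 (SE, adjusted p = 0.0119) and MAD2L1 at -0.36 ± 0.11 (SE, adjusted p = 0.0304), with ANAPC10 (-0.66) and CDC23 (-0.52) of the core. The genes called higher were SPC24 at 0.51 ± 0.17 (SE, adjusted p = 0.0426), TOP2A at 0.49 ± 0.13 (SE, adjusted p = 0.0241) and CENPF at 0.41 ± 0.13 (SE, adjusted p = 0.0416), beside ANAPC16 (0.40) and ANAPC11 (0.36). In these cells TOP2A stood at 187 to 207 CPM in paclitaxel, DMSO and pre-treatment, 284 in palbociclib, and 243 to 293 with JQ1. CENPF stood at 187 to 205 CPM in the same 3 libraries, 262 in palbociclib and 236 to 276 with JQ1. CCNB1 moved the other way, from 329 to 371 CPM in those 3 to 217 to 227 with JQ1, palbociclib lying between at 266. In cells with 0 to 2 UMIs of the 16 genes, 14 of 54 members tested were called lower (9.49% of all genes) and ANAPC16 higher (7.22%), with a median of -0.63. Of the 16 genes that set the classes, 5 were called lower for JQ1 over all cells; the part of this in the values by class was not tested.

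**Figure D5:**
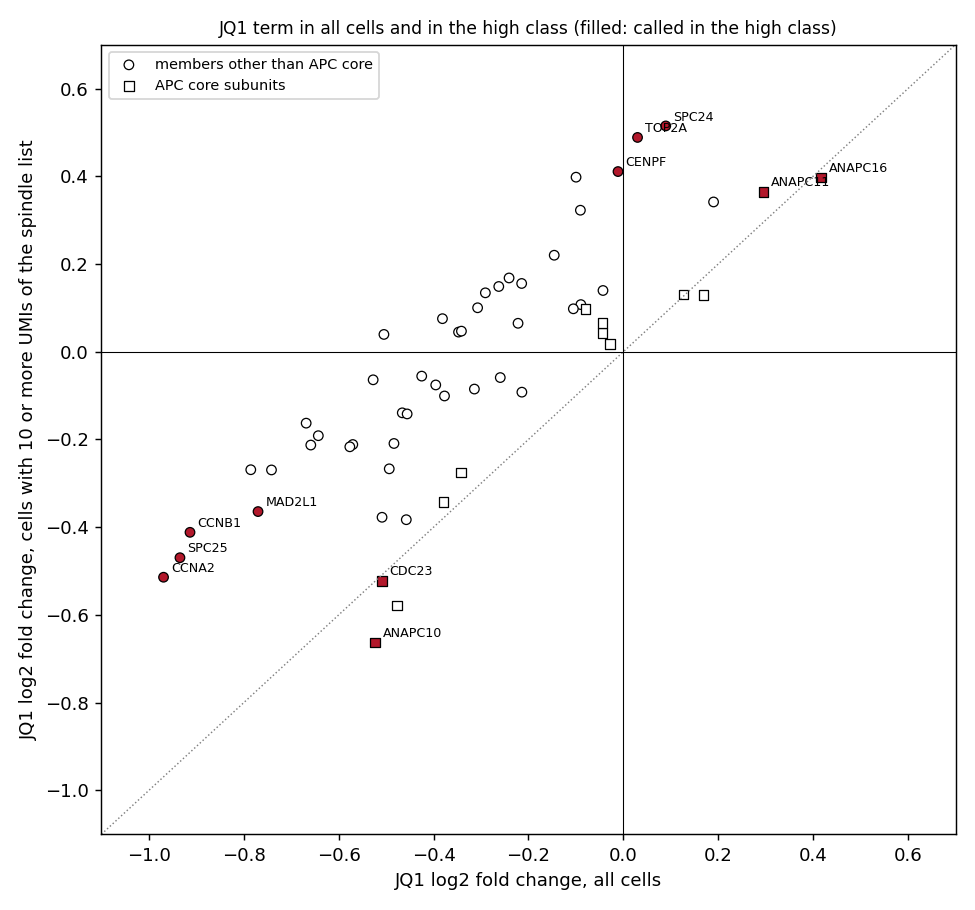
JQ1 log2 fold change of each member over all cells (x) and over cells with 10 or more UMIs of the 16 spindle and cytokinesis genes (y); circles are members outside the APC core, squares core subunits, and filled symbols were called in those cells. Most circles lie above the dotted line of equality, with CCNA2, SPC25, CCNB1 and MAD2L1 still lower and SPC24, TOP2A and CENPF higher, while the squares lie near the line.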

How the data were processed

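Single-cell 3′ RNA libraries of SUM159 cells were aligned to the hg19 build and counted with Cell Ranger by the authors, who deposited 1 table of UMI counts per gene and cell and filtered cells in Seurat for their own analysis. The deposited counts were raw whole numbers for 5738 cells and 18955 genes, each gene found in at least 3 cells, and 0 per-sample columns were left unused. A 3′ tag count is not scaled by length, so levels are compared within a gene only. Cells were assigned to libraries by their labels, and their counts were summed per library.

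Genes with at least 5 CPM in at least 2 libraries were fitted with terms for JQ1, palbociclib and paclitaxel in edgeR 4.0.16 (TMM, quasi-likelihood test, 4 residual degrees of freedom) in R 4.3.3 with p-values adjusted by the Benjamini-Hochberg method and calls made below 0.05. DESeq2 1.42.0, other scalings, filters, sets of cells, thinning to 10621159 UMIs per library, experiment as a term and leaving out each library were tried as alternatives. The per-cell shares, intervals and figures were made in Python 3.11.15 with NumPy 2.4.6, pandas 2.3.3, SciPy 1.17.1 and matplotlib 3.10.9. Of 5575 cells that passed the filter of the study, 88 had too few UMIs to thin. Doublets were not called. In simulated counts, 200 genes were changed by 2 on the log2 scale, more than any member for any drug, with the spread between libraries set in advance. The fit called 97% of them for JQ1 (8987 genes), 97% for palbociclib (8991 genes) and 98.5% for paclitaxel (8978 genes). The share called at log2 fold changes as small as those of the members was not tested.

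The members, role groups and other lists were chosen with earlier results of these data known. Named members were the 3 with the highest mean CPM of each role group, the 5 largest called rises and falls per drug, the 5 that followed the other members least, and ANAPC13, ANAPC2 and ZWILCH; all others are named to account for every member or as parts of a small count, after their values were seen. Intervals cover counting error only.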

Additional observations from a re-analysis of the deposited data

Results flagged for a closer look

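In 78 groups of 4 libraries (with and without JQ1, for 39 members and sums), 6 held a library far from its other 3 by Dixon's ratio. The libraries of a group mixed treatments and the sums contain the members, so no chance rate is set beside this count. With JQ1, JQ1+palbociclib was the far library in 3 of them, lowest for CCNA2 at 19.8 CPM, for SPC25 at 16.8 CPM and for the sum of the 46 members outside the APC core at 2391 CPM. The same group had JQ1-B highest for the summed APC core, at 1133 CPM. Without JQ1, palbociclib was lowest for CENPW at 90.5 CPM and DMSO highest for ANAPC11 at 447 CPM.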

How the results depend on the processing

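Called members for JQ1 (25 lower, 2 higher) and called genes (3488) changed as follows. With library totals alone 0 members were higher. DESeq2 gave 27 members lower (19.7% of all genes), with MAD1L1, ZWINT and CENPA added and ANAPC4 lost. With at least 20 CPM required, 2062 genes were called. With experiment as a term, 2 members were lower and 0 higher, with 463 genes, and in 3 matched pairs 2 and 0, with 361 genes; the JQ1+paclitaxel experiment alone gave 1 higher. Leaving out each library gave 12 to 32 members lower (12 without JQ1-B, 13 without JQ1-A, 32 without JQ1+palbociclib), 1 to 2 higher and 1760 to 4190 genes. For palbociclib (1 member lower, 26 genes), DESeq2 gave 12 members and 515 genes, experiment as a term 0 and 0, at least 20 CPM 16 genes, thinned libraries 41 genes, and leaving out each library 0 to 14 members and 0 to 938 genes. For paclitaxel (0 and 0), DESeq2 gave 1 member higher and 9 genes, the JQ1+paclitaxel experiment alone 2 genes, and leaving out each library 0 to 4 genes. Alternatives by class of cell were chosen after seeing the data. Cells with 10 or more UMIs of the spindle and cytokinesis list gave 6 members lower and 5 higher for JQ1 and 0 for palbociclib. The JQ1 log2 fold change was negative there in only 29 of 58 members. BIRC5 and CDC20, called lower over all cells, gave 0.045 ± 0.093 and 0.039 ± 0.12 (SE) there, and CENPF gave 0.41. Cells with at most 2 such UMIs gave 14 lower, 1 higher and 1572 genes for JQ1, and 0 members and 2 genes for palbociclib. The median UMIs of the 60 members per 10000 were 62.2 in paclitaxel and 29.4 in JQ1+paclitaxel without thinning, and 31 in JQ1-B without the cells above the 95th percentile of UMIs. Without the paclitaxel library, 3 of the 5 members that followed the others least stayed among the lowest 5. The causes were not tested. Of 663 JQ1 log2 fold changes of named members under the alternatives other than those by class, 573 kept their side of the threshold, 72 lost a call and 18 gained one; 26 changed sign, 0 of them of members called over all libraries. The JQ1+palbociclib experiment alone could not be fitted with both drug terms. Blocking by replicate number could not be done, since the groups compared share fewer than 2 numbers; the 3 matched pairs follow experiment and partner drug instead. Palbociclib and paclitaxel each rest on 2 libraries, and the palbociclib experiment had no vehicle library, so that experiment and drug are partly confounded.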
